A study of Mus musculus with 24 samples.

Results

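The 48 genes described here code for the machinery that copies DNA and for its G1/S control. They were chosen by name, as the symbols of a list of replication and S-phase genes, and all 48 were found among the 19780 genes of the authors' deposited control table and the 19979 genes of the paused table. Poly(A) RNA was sequenced from E14, a mouse embryonic stem cell line derived from the blastocyst, grown on gelatin in serum with LIF. The genotypes are wild type and 2 knockout lines of Smad2, a transcription factor downstream of activin and Nodal, and each was kept for 12 h in control medium or with 200 nM INK128, which inhibits mTOR and puts these cells into a paused state. The 24 libraries form 6 groups of 4, namely wild type, Smad2 knockout 1 and Smad2 knockout 2 in each condition. How the knockouts were made, and whether each line is 1 clone, is not given in the sources used here.

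The values are 2 results tables, 1 per condition, each with a mean normalized count per gene over its libraries, a log2 fold change, its standard error (SE) and an adjusted p. No value of a single library was analysed, so neither the spread within a group nor the 2 knockout lines can be shown apart, and the depth per library is unknown. The labels name replicates but not separate cultures, so the p-values may measure technical spread only. The numerator of the change is not named in the tables. Smad2 was at -0.35 (SE 0.07) in the authors' deposited control table and at -0.63 (SE 0.06) in the paused one, so the changes are taken to be knockout over wild type. If the numerator were the wild type, each direction given here would be inverted. Its remaining mRNA does not show which part of the gene was deleted. The labelled cell type was checked on 8 stem cell markers, among them Pou5f1, Nanog and Sox2. All were present in both of the authors' deposited tables, and their means summed to 235248 normalized counts (control) and 190533 (paused). A gene is called here when its adjusted p is under 0.05 over all genes of its table. In bulk RNA, fewer cells in S phase and less RNA per cell cannot be told apart.

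Replication is prepared in G1, when the origin recognition complex (ORC), Cdc6 and Cdt1 load rings of Mcm2 to Mcm7 onto DNA. Geminin blocks this step once S phase begins. Cdc45 and GINS turn the ring into the active helicase, the Pola1 polymerase with its primase lays down primers, replication factor C (RFC) loads the sliding clamp Pcna, and the epsilon and delta polymerases extend. E2F factors switch on many of these genes, cyclin E with Cdk2 drives entry into S phase, and embryonic stem cells are known for a short G1 with high cyclin E.

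Motifs of the E2F type were looked for in the promoters. The motifs TTTCCCGC and TTTGGCGC, read on both strands, were searched from 250 bases before to 50 bases after each RefSeq start on GRCm38.p6, the assembly also called mm10. Windows were found for 39 of the 48 genes. At least 1 match lay in the windows of 14 of these (35.9%), against 1.8% of all 27025 genes with a window and 2.94% of those in the control table. Matches lay in 4 of the 20 genes called in either condition and in 10 of the 19 called in neither, a difference that was not tested. The stretches below show such matches in capitals, in genes that were called on Smad2 loss (E2f2, Rfc3 and Orc3) and in genes called in neither condition as deposited (Mcm5, Mcm6 and Cdc6). Each reads 5′ to 3′ on the strand of its gene, and a match is a description of letters, not of a bound site.
E2f2: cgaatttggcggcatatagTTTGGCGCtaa
Rfc3: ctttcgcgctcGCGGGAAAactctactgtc
Orc3: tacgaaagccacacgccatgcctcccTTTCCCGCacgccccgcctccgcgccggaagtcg
Mcm5: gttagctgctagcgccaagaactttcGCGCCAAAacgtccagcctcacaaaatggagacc
Mcm6: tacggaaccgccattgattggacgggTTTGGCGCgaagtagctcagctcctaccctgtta
Mcm6: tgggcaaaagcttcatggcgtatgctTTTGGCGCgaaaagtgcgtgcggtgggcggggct
Cdc6: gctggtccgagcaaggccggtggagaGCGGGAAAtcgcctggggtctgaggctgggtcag

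The stretch of E2f2 is chr4:136172294-136172323 on the plus strand, and its match begins at base 40 counted from the RefSeq start. That of Rfc3 is chr5:151651190-151651219 on the minus strand, with the match at base 1 counted from the RefSeq start. The Orc3 stretch is chr4:34614950-34615009 on the minus strand, 41 bases upstream of the start. Mcm5 is shown at chr8:75109334-75109393 on the plus strand, where the match begins 149 bases upstream. Mcm6 has a pair of matches, 47 and 110 bases upstream, in chr1:128359719-128359778 and chr1:128359782-128359841 on the minus strand. Cdc6 is shown at chr11:98907987-98908046 on the plus strand, with the match 138 bases upstream. All these positions are relative to RefSeq starts. By the GENCODE M21 bounds of the genes, the match of E2f2 lies upstream and those of Rfc3 and Cdc6 lie inside the gene. The other motifs searched on both strands were CCAAT, the box read by NF-Y, in 22 of the 39 (56.4%, against 41.1% of all genes), TTTGAA in 6 (15.4%, against 20.2%) and TTCGAA in 2 (5.13%, against 1.8%). Among genes in the control table these shares were 42.6%, 15.2% and 2.23%. TTTGAA and TTCGAA are forms of the cell cycle homology region and do not overlap the E2F letters.

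The first comparison asked which replication genes changed on Smad2 loss in control medium. In the authors' deposited control table, 14 of the 48 (29.2%) were called, against 41.4% of all genes tested and 50.0% of the genes above a minimum on abundance, set at 5 ppm of the summed means (230 normalized counts), which all 48 exceed. The called genes were 3 higher, E2f2, Orc1 and Mcm2 (19.5% of all genes), and 11 lower (21.9% of all genes), led by Ccne1, Pola2, Gmnn and Rfc5. The changes were small: the largest was 1.33-fold, and the median absolute log2 change was 0.09, against 0.22 for all genes and 0.15 for genes above the minimum on abundance. The median change was -0.04, beside -0.05 for genes above that minimum.

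In the authors' deposited paused table, 15 of the 48 (31.2%) were called, against 42.6% of all genes and 51.6% of those above the minimum on abundance, 221 normalized counts there. E2f2, E2f1, Orc2 and Prim1 were higher (20.5% of all genes were called higher) and 11 genes were lower (22.0% of all genes), led by Ccne1, Rfc3, Pcna and Tyms. The largest change was 1.41-fold. The median absolute log2 change was 0.07, against 0.21 for all genes and 0.13 for genes above the minimum. In a test against 1.2-fold, E2f2 in paused cells was the 1 gene of the 48 still called, and none was with a statistic scaled to the spread over all genes. The split into higher and lower rests on the authors' scaling. With the changes shifted to equal summed counts in both genotypes, 12 of the 48 were called in control cells, with 7 higher and 5 lower. In paused cells 16 were, with 7 higher and 9 lower. Over all genes that shift gave 39.8% called, 60.5% of them higher (control), and 41.1% called, 57.6% of them higher (paused). Setting the median change of abundant genes to 0 gave 7 higher and 5 lower (control) and 8 each way (paused), where 60.1% and 60.9% of the calls over all genes were higher.

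**Figure D1:**
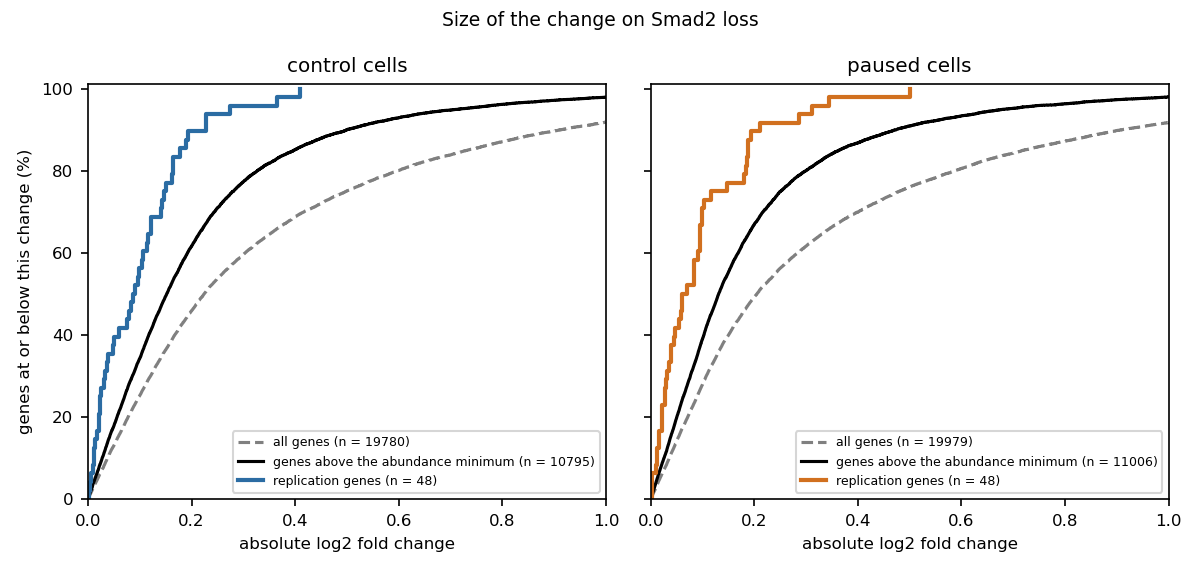
Cumulative share of genes (%, y axis) at or below an absolute log2 fold change (x axis) on Smad2 loss, in control cells on the left and paused cells on the right. The line of the 48 replication genes lies left of the lines of all genes and of genes above the abundance minimum in both panels, with medians of 0.09 and 0.07.

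The 95% intervals rest on the deposited SEs, which may hold technical spread only, and so may not cover differences between cultures or clones. The median SE of the 48 genes was 0.05 in both of the authors' deposited tables. The 95% interval, from the SE and a normal distribution, lay within 1.2-fold in either direction for 36 of the 48 genes in control cells (43.6% of genes above the minimum on abundance) and for 38 in paused cells (53.9%). It lay within 1.5-fold for all 48 in control cells (85.3% of genes above the minimum). In paused cells it did so for 47 (87.7%), the exception being E2f2, whose interval reached 0.68 on the log2 scale.

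**Figure D2:**
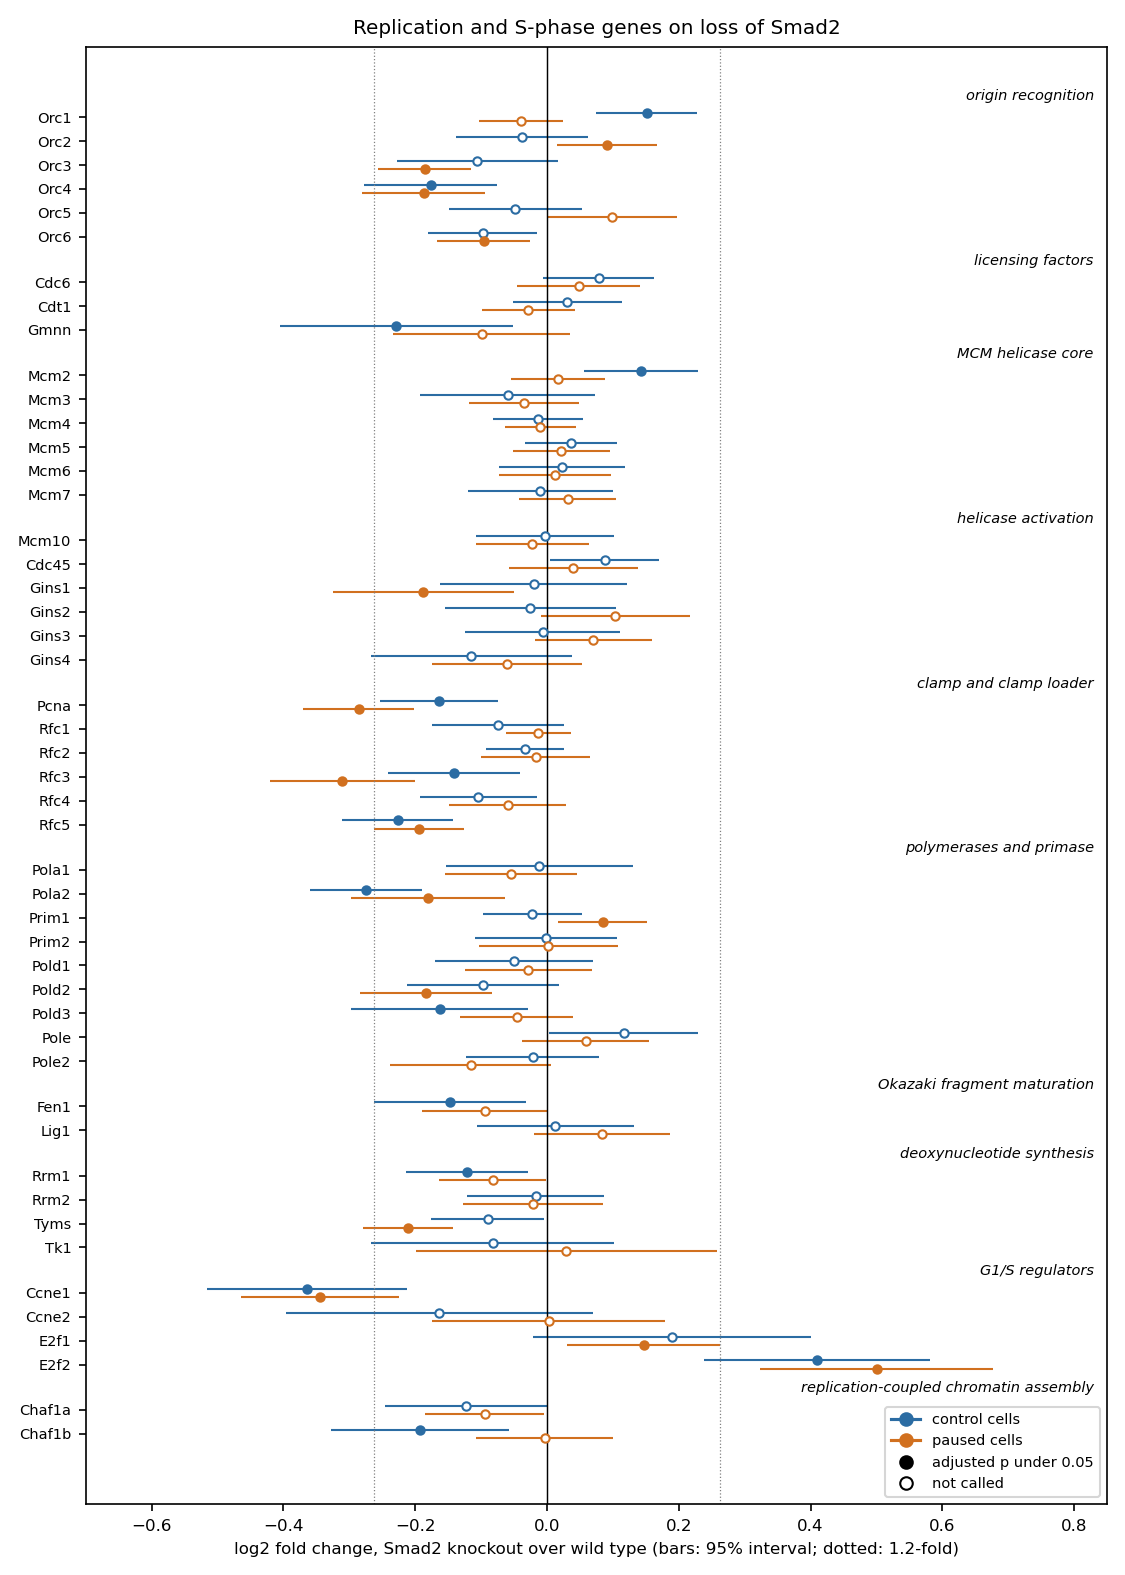
Log2 fold change of each gene, knockout over wild type (x axis), in control cells (blue) and paused cells (orange), grouped by role, with bars for the 95% interval from the deposited SE and filled points for adjusted p under 0.05. Most points lie between the dotted lines at 1.2-fold. E2f2 lies to the right of them and Ccne1 to the left in both conditions.

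The G1/S regulators held the largest changes. Ccne1, which codes for cyclin E1, the partner of Cdk2, fell by 0.36 (SE 0.08, adjusted p 1.86e-05, mean 13319 normalized counts) in the authors' deposited control table. In that for paused cells it fell by 0.34 (SE 0.06, adjusted p 2.13e-07, mean 4690). Both falls leave it near 1.3-fold below the wild type (1.29-fold and 1.27-fold), at a mean that was itself lower in paused cells. Its paralog Ccne2 (cyclin E2) was at -0.16 (SE 0.12) in control and 0.00 (SE 0.09) in paused cells of the authors' deposited tables and was called in neither.

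E2f2, an activating E2F factor, rose by 0.41 (SE 0.09, adjusted p 2.05e-05, mean 900 normalized counts) in the authors' deposited control table. It rose by 0.50 (SE 0.09, adjusted p 2.69e-07, mean 704) in that for paused cells. E2f1, the other activator among the 48, was at 0.19 (SE 0.11, adjusted p 0.152) in control cells and rose by 0.15 (SE 0.06, adjusted p 0.0332) in paused cells of the authors' deposited tables. The values for E2f1 lie close together, and the call in paused cells goes with the smaller SE there.

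Origin recognition genes did not move as a unit. Orc4 was lower in both conditions, at -0.18 (SE 0.05, adjusted p 0.0024) in control and -0.19 (SE 0.05, adjusted p 0.000381) in paused cells of the authors' deposited tables. Orc3 was at -0.11 (SE 0.06, adjusted p 0.17) in control cells and fell by 0.19 (SE 0.04, adjusted p 1.86e-06) in paused cells. Orc6 had almost the same value in both deposited tables, -0.10 (SE 0.04), and was called in paused cells alone (adjusted p 0.0512 and 0.0202), a call lost under both other scalings. With adjustment over genes above the minimum on abundance it was also called lower in control cells (adjusted p 0.0424), as was Rfc4. Orc1, the largest subunit and the one whose level follows the cell cycle, went the other way in control cells, where it rose by 0.15 (SE 0.04, adjusted p 0.000493 in the authors' deposited table). In paused cells it was at -0.04 (SE 0.03, adjusted p 0.334). Orc2 was at -0.04 (SE 0.05) in control cells and rose by 0.09 (SE 0.04, adjusted p 0.0456) in paused cells of the authors' deposited tables. Orc5 (-0.05 and 0.10, SE 0.05 in each) was called in neither as deposited, and higher in paused cells under both other scalings. Of the exons of Orc2, 29.8% overlap those of Nif3l1 on the other strand, so its value is uncertain, as the use of strand in counting is not given in the sources used here.

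Of the 6 subunits of the helicase core, Mcm2 alone was called, in control cells and not in paused cells. Mcm2 rose by 0.14 (SE 0.04, adjusted p 0.00433) in the authors' deposited control table and was at 0.02 (SE 0.04) in paused cells. The other 5 core subunits lay between -0.06 (Mcm3) and 0.04 (Mcm5) in control cells of the authors' deposited table, and Mcm5 was called higher there under both other scalings. In paused cells all 6 lay between -0.03 (Mcm3) and 0.03 (Mcm7), with 95% intervals that reached from -0.12 (Mcm3) to 0.10 (Mcm7). These subunits were also abundant. Mcm5 had a mean of 26406 normalized counts in control cells and 23606 in paused cells of the authors' deposited tables. Per kilobase of exons (GENCODE M21, all exons of a gene merged) the core subunits ran from 3734 (Mcm2) to 6680 (Mcm3) normalized counts in control cells, against a median of 1095 over the 48 genes.

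Of the licensing factors, Cdc6 (0.08, SE 0.04) and Cdt1 (0.03, SE 0.04) were not called in control cells of the authors' deposited table, nor in paused cells (0.05, SE 0.05, and -0.03, SE 0.04). Gmnn, which codes for geminin, the inhibitor of Cdt1, fell by 0.23 (SE 0.09, adjusted p 0.0302) in control cells and was at -0.10 (SE 0.07, adjusted p 0.248) in paused cells. Under both other scalings the call of Gmnn in control cells was lost and Cdc6 was called higher there. Among the genes that activate the helicase, none of Mcm10, Cdc45 and Gins1 to Gins4 was called in the authors' deposited control table, though Cdc45 (0.09, SE 0.04) was called higher under both other scalings. In paused cells Gins1 fell by 0.19 (SE 0.07, adjusted p 0.0201), a call lost under both other scalings, while Gins2 (0.10, SE 0.06) and Gins3 (0.07, SE 0.05), subunits of the same complex, had values above 0 and were called higher under both other scalings but not as deposited. Over 67.3% of their length the exons of Gins2 overlap those of Gse1.

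Of the 6 genes of the clamp and its loader, Pcna, Rfc3 and Rfc5 were called lower in each of the authors' deposited tables. None of the 6 was called higher. Over all genes, 21.9% (control) and 22.0% (paused) were called lower. Of genes above the minimum on abundance, 50.0% and 51.6% were called in either direction. Pcna fell by 0.16 (SE 0.05, adjusted p 0.00153, mean 18497 normalized counts) in control cells and by 0.29 (SE 0.04, adjusted p 4.23e-10, mean 9013) in paused cells of the authors' deposited tables. Rfc3, a small subunit of the loader, fell by 0.14 (SE 0.05, adjusted p 0.0176) in control cells and by 0.31 (SE 0.06, adjusted p 2.77e-07) in paused cells. Rfc5, another small subunit, fell by 0.23 (SE 0.04, adjusted p 1.21e-06) and 0.19 (SE 0.03, adjusted p 2.39e-07). The other subunits were not called: Rfc1, Rfc2 and Rfc4 lay between -0.10 and -0.03 in control cells and between -0.06 and -0.01 in paused cells of the authors' deposited tables. Under both other scalings Pcna and Rfc5 were called lower in each condition, and Rfc3 in paused cells alone. The exons of Rfc5 overlap those of Wsb2 over 10.7% of their length. GENCODE M21 lists 2 processed pseudogenes of Pcna and 1 of Tyms, none of them in the control table, and reads shared with them could not be checked.

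Of the 9 polymerase and primase genes, Pola2, the accessory subunit of the alpha polymerase, was called lower in both conditions. It fell by 0.27 (SE 0.04, adjusted p 3.81e-09) in the authors' deposited control table and by 0.18 (SE 0.06, adjusted p 0.00825) in the paused one, where the call was lost with median centring, the scaling that sets the median change of abundant genes to 0. The catalytic subunit of the same enzyme, Pola1, was at -0.01 (SE 0.07) and -0.05 (SE 0.05). Prim1, the catalytic primase subunit, rose by 0.08 (SE 0.03, adjusted p 0.0352) in paused cells and was at -0.02 (SE 0.04) in control cells. Prim2, its partner, was at -0.00 (SE 0.06) and 0.00 (SE 0.05) in the authors' deposited tables. In the delta polymerase, Pold2 fell by 0.18 (SE 0.05, adjusted p 0.00127) in paused cells and Pold3 by 0.16 (SE 0.07, adjusted p 0.0443) in control cells, the latter lost under both other scalings. The catalytic subunits Pold1 (-0.05 and -0.03) and Pole (0.12 and 0.06) and the epsilon subunit Pole2 (-0.02 and -0.12) were called in neither of the authors' deposited tables. Under both other scalings Pole was called higher in control cells.

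In deoxynucleotide synthesis, Tyms, the thymidylate synthase, was at -0.09 (SE 0.04, adjusted p 0.0829) in control cells and fell by 0.21 (SE 0.03, adjusted p 1.8e-08) in paused cells of the authors' deposited tables. Rrm1, the large subunit of ribonucleotide reductase, fell by 0.12 (SE 0.05, adjusted p 0.0276) in control cells, while its small subunit Rrm2 was at -0.02 in both tables (SE 0.05). Tk1, the thymidine kinase of the salvage pathway, was at -0.08 (SE 0.09) and 0.03 (SE 0.12). Of the enzymes that finish Okazaki fragments, Fen1, the flap nuclease, fell by 0.15 (SE 0.06, adjusted p 0.0319) in the authors' deposited control table, and Lig1, the ligase, was called in neither as deposited, and higher in paused cells with median centring. Chaf1b, a subunit of the CAF-1 complex that places histones behind the fork, fell by 0.19 (SE 0.07, adjusted p 0.0154) in control cells and was at -0.00 (SE 0.05) in paused cells. Chaf1a, its partner, was at -0.12 (SE 0.06) and -0.09 (SE 0.05) in the authors' deposited tables and was called in neither. The control calls of Rrm1, Fen1 and Chaf1b were lost under both other scalings. The exons of Fen1 (78.8%, with the antisense Gm10143) and Chaf1a (52.5%, with Ubxn6) overlap another gene on the other strand.

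The second question was whether the effect of Smad2 loss depended on pausing. The control and the paused calls shared 7 genes, each with the same direction in the authors' deposited tables: Orc4, Pcna, Rfc3, Rfc5, Pola2 and Ccne1 lower and E2f2 higher. They make up 50.0% of the control calls, against 71.5% over all genes and 73.5% over genes above the minimum on abundance. Of the paused calls they are 46.7%, against 69.0% and 70.4%. Across the 48 genes the changes in both conditions had a Pearson r of 0.77 and a Spearman rho of 0.67, where genes of 1 table share its libraries and are not independent, beside 0.88 and 0.81 over genes above the minimum on abundance. The change itself differed, by a two-sided test of the difference over its combined SE adjusted over the 19134 genes in both tables, for 1 of the 48, Orc1, against 1.44% of all genes. The paused minus the control change of Orc1 was -0.19 (SE 0.05, adjusted p 0.0191). At an unadjusted p under 0.05 there were 8, against 12.9% of all genes, namely Orc1, Orc2, Orc5, Mcm2, Rfc3, Prim1, Tyms and Chaf1b. The difference of Rfc3 was -0.17 (SE 0.08, adjusted p 0.295) and that of Chaf1b 0.19 (SE 0.09, adjusted p 0.314). For all 48 genes the 95% interval of the difference lay within 1.5-fold. The share of all genes with such an interval was not computed. A call in 1 table alone was made for 15 of the 48 (31.2%), against 25.4% of all genes and 28.0% of those above the minimum on abundance. Apart from Orc1, for none of these did the difference between conditions pass the threshold.

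**Figure D3:**
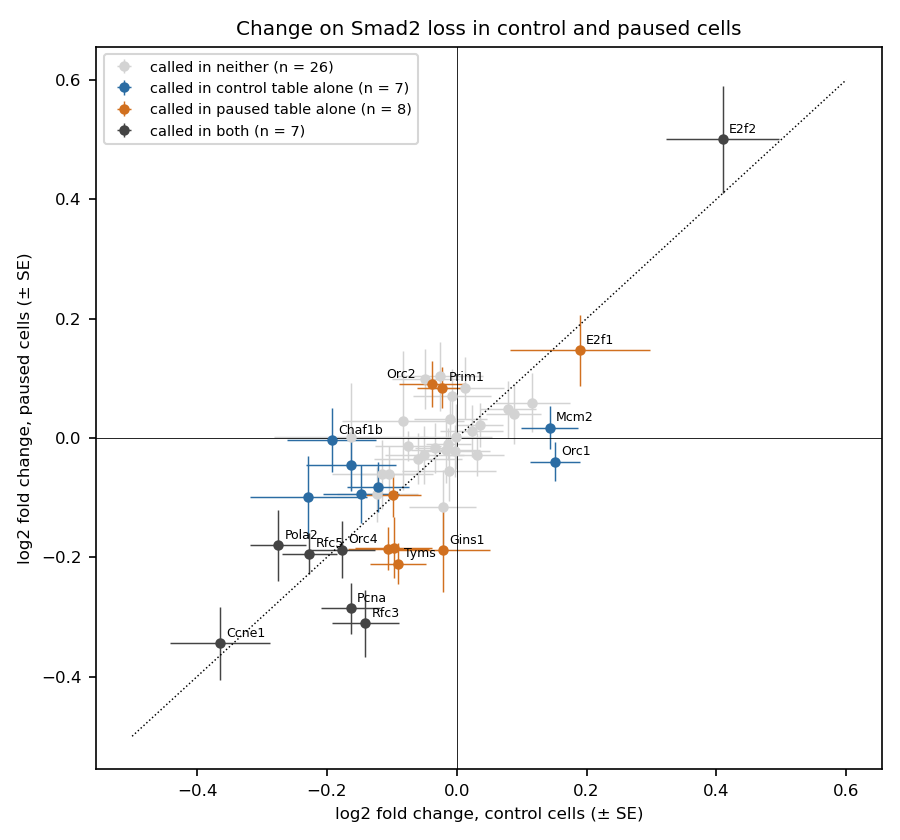
Log2 fold change in control cells (x axis) against paused cells (y axis) for the 48 genes, with bars of 1 SE. Colours show the tables in which a gene was called, and the dotted line marks equal changes. E2f2 at 0.41 and 0.50 and Ccne1 at -0.36 and -0.34 lie at the ends of the diagonal, and Orc1 lies below it.

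The deposited means also allow a look at levels, though each mean covers wild-type and knockout libraries together, has no error, and comes from a table normalized on its own, so the values are set side by side without a test. In paused cells 12 of the 48 genes (25%) had a mean at least 1.5-fold below that in control cells, against 13.3% of the 10952 genes above the minimum on abundance, and none was as far above it, against 13.4%. Cyclin E1 stood lowest. The mean of Ccne1 was 13319 normalized counts in the authors' deposited control table and 4690 in that for paused cells, a ratio of 0.352. Tk1 went from 1886 to 691, a ratio of 0.366, and Pcna from 18497 to 9013, a ratio of 0.487, in the same tables. All 4 genes of deoxynucleotide synthesis were among the 12, with Tyms at 0.642, Rrm2 at 0.628 and Rrm1 at 0.66. With each table's means divided by their sum, Tyms and Rrm1 no longer passed the limit. That left 10 of the 48, against 11.4% of the genes above the minimum on abundance. The others of the 12 were Rfc3 (0.534), Gins1 (0.549), Pold2 (0.595), Cdc6 (0.609), Pole2 (0.613) and Ccne2 (0.619). Fen1 (0.671) lay just outside the 1.5-fold limit.

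None of the helicase core was among these 12, with ratios from 0.877 (Mcm4) to 1.04 (Mcm7). Levels of Orc5 (1.36), E2f1 (1.29), Pole (1.28), Rfc4 (1.22) and Cdt1 (1.21) were above the control mean. The median ratio was 0.888 over the 48 genes and 1.00 over genes above the minimum on abundance. Per kilobase of exons, Pcna had the highest mean of the 48 in control cells (7707 normalized counts) and Mcm3 in paused cells (6010), and Ccne2 the lowest in both (147 and 91.0).

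**Figure D4:**
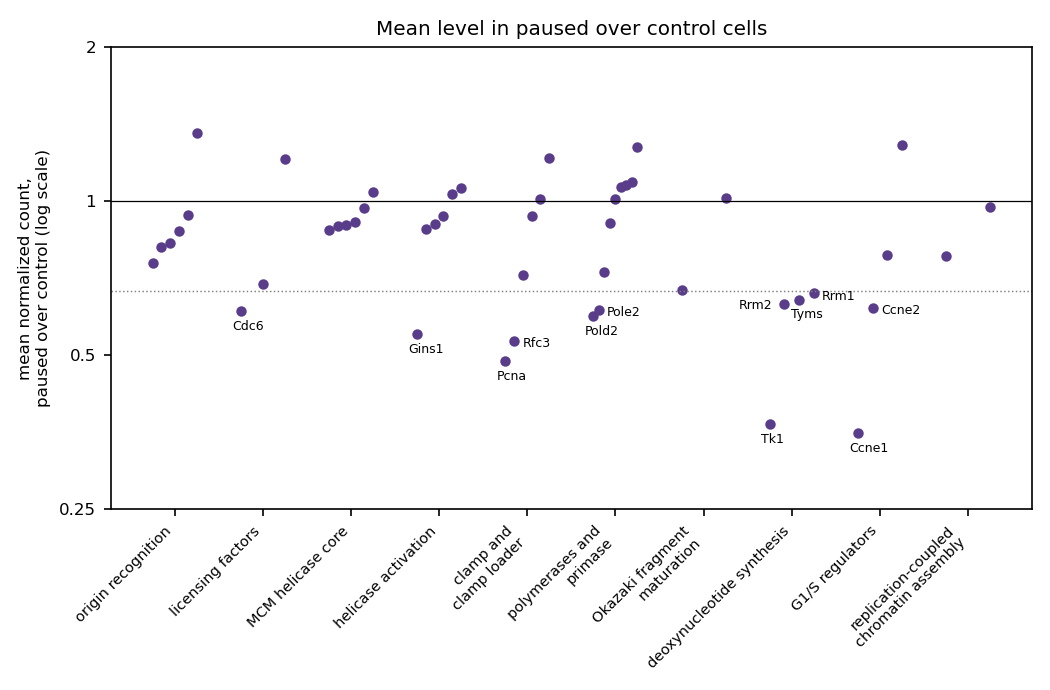
Ratio of the deposited mean normalized count in paused cells to that in control cells (y axis, log scale) for each gene, grouped by role (x axis). The dotted line marks 1.5-fold below control, and the 12 genes under it are named, with Ccne1 at 0.352 and Tk1 at 0.366 the lowest.

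Further genes of the pathway, from lists made by function, were read in the same tables. Of 27 other replication genes, 5 were called higher and 9 lower in the authors' deposited control table, and 4 and 4 in the paused one. Over all genes the shares were 19.5% higher and 21.9% lower (control), and 20.5% and 22.0% (paused). Both other scalings gave 7 and 7 (control) and 6 and 2 (paused). Of the calls over all genes, 60.5% (control) and 57.6% (paused) were higher with equal summed counts. The largest change was that of Ticrr, the treslin protein that helps Cdc45 join the helicase, which rose by 0.47 (SE 0.08, adjusted p 3.75e-07) and 0.44 (SE 0.05, adjusted p 6.32e-18). Dbf4, the activator of the Cdc7 kinase that fires origins, fell by 0.23 (SE 0.05, adjusted p 1.31e-05) in control cells and by 0.14 (adjusted p 0.00144) in paused cells of the authors' deposited tables. Rif1, which limits origin firing, rose by 0.23 in each (adjusted p 0.00858 and 2.16e-07).

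Of 14 genes of nucleotide and histone supply, 8 were called lower and 1 higher in the authors' deposited control table, where 21.9% of all genes were lower and 19.5% higher. In paused cells 6 were lower and none higher, against 22.0% and 20.5% of all genes. With equal summed counts 6 were lower and 1 higher (control), and 3 lower and 1 higher (paused), beside 39.8% and 41.1% of all genes called under that scaling, more of them higher than lower. Dut, which removes dUTP, fell by 0.33 (SE 0.06, adjusted p 2.98e-06) and 0.29 (SE 0.05, adjusted p 6.1e-09). Slbp, which binds the stem loop of histone mRNAs, fell by 0.36 (SE 0.08, adjusted p 1.89e-05) in the authors' deposited control table and by 0.12 (adjusted p 0.0272) in the paused one, where the call was lost under both other scalings.

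Of 16 other E2F and pocket protein genes, 9 were called lower and 1 higher in the authors' deposited control table, against the same 21.9% and 19.5% of all genes. In paused cells 8 were lower and none higher, beside 22.0% and 20.5%. With equal summed counts the numbers were 6 and 1 in each condition, beside the same 39.8% and 41.1%. Tfdp1, the DNA-binding partner that most E2F proteins need, fell by 0.59 (SE 0.06, adjusted p 1.29e-21) in control cells and by 0.45 (SE 0.06, adjusted p 1.9e-14) in paused cells, and it stayed called in both in the test against 1.2-fold. E2f4, a repressing E2F, fell by 0.43 (SE 0.06, adjusted p 1.03e-12) and 0.25 (SE 0.05, adjusted p 1.41e-06) in the authors' deposited tables. E2f8, an atypical repressor, fell by 0.42 (SE 0.08, adjusted p 2.46e-07) in control cells and by 0.20 (adjusted p 0.00988) in paused cells, the latter lost with median centring. E2f3, an activator, fell by 0.28 (adjusted p 1.9e-11) and 0.33 (SE 0.05, adjusted p 6.66e-09) in the authors' deposited tables. The rise of E2f2 stood beside falls of other members of its family. E2f1 was above 0 in both conditions and called higher in paused cells.

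Markers of other cell types were read beside the 41.4% and 42.6% of all genes that were called. All 6 primitive endoderm markers, Gata4, Gata6, Sox17, Dab2, Pdgfra and Sox7, were called higher in each of the authors' deposited tables, with median changes of 1.27 in control and 1.28 in paused cells. Dab2 alone of these 6 exceeded the minimum on abundance, with means of 542.8 (control) and 1231.5 (paused). The summed means of the 6 were 1011 and 1788 normalized counts, against 235248 and 190533 for the 8 stem cell markers. Of those 8, Nanog (0.32 and 0.18) and Fgf4 (0.50 and 0.48) were called higher in both of the authors' deposited tables. Pou5f1 (-0.18) was called lower in control cells, a call lost under both other scalings, and Tdgf1 (-0.21) lower in paused cells. Of the fibroblast markers, 4 of the 5 present were called lower in the control table, and 3 of the 4 present in the paused one (summed means 813 and 789). Lum was in neither, and Dcn not in the paused table. Of the primitive streak list 3 of the 5 genes present were called lower and 1 higher in control cells and 2 lower in paused cells (summed means 745 and 652), and Mesp1 was in neither table. Of the trophoblast list (summed means 12884 and 13807) 2 genes were called lower and 1 higher in control cells, and 1 each way in paused cells. The neuroectoderm list (8453 and 4382) had 2 lower and 1 higher in both, and Neurog2 was in neither table. Levels in single groups could not be read from the tables, and the part of these markers in the changes of the replication genes was not tested.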

How the data were processed

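Per the submitters' processing notes, FastQC, Trim Galore, HISAT2, featureCounts and DESeq2 were used with mm10; versions, parameters and the use of strand are not given in the sources used here. Per the file headers, the authors deposited DESeq2 results: a mean normalized count (a signal value), a log2 fold change with its SE on the log2 scale, a statistic (a score), a p-value and an adjusted p-value. The statistic was checked to be change over SE, and the adjusted values to be Benjamini-Hochberg values over all genes with a p. Which libraries entered each deposited table is not stated, and no count per library was analysed.

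The members and lists were chosen with earlier results of these data known. Any of the 48 genes could be named, Smad2 as a check of the labels, and from each other list at most 4 called genes per table by size of change. The difference between conditions used a normal test, adjusted over 19134 genes with scipy 1.17.1 in Python 3.11.15. The test was checked on simulated tables. It recovered 23.0% of differences of 1.2-fold and 80.5% of those of 1.5-fold, with 8.0% and 8.52% of its calls false. Changes were planted in 200 genes with smaller SEs, all other genes had none, and the noise was drawn from the deposited SEs. The check thus cannot show whether those SEs are too small, and it does not give the recovery for the 48 genes. Promoter windows are those of RefSeq, GRCm38.p6; a gene counts once over its windows. Alternatives were a stricter adjusted p of 0.01, a test against 1.2-fold, the minimum on abundance, 2 other scalings, and a statistic scaled to the spread of a standard normal. Equal summed counts assume 4 wild-type and 8 knockout libraries per table.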

Additional observations from a re-analysis of the deposited data

Results flagged for a closer look

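Orc1 was picked out because its change on Smad2 loss differed between the conditions, as tested on the difference of both changes. The paused minus the control change was -0.19 on the log2 scale (SE 0.05, 95% interval -0.29 to -0.09), from 0.15 in control cells to -0.04 in paused cells of the authors' deposited tables. The adjusted p was 0.0191 and ranged from 0.00627 (equal summed counts) to 1 (against a difference of at most 1.2-fold), with 0.259 for the scaled statistic. Its exons overlap those of Gm12743, a transcript on the other strand, over 10.8% of their length.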

How the results depend on the processing

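Of the 14 calls in control cells, 8 were left at an adjusted p under 0.01 (30.9% of all genes), 0 in a test against 1.2-fold (12.2%) and 0 with the scaled statistic (1.48%), where 1 gene had an unadjusted p under 0.05 in each. The minimum on abundance gave 16, adding Orc6 and Rfc4, beside 51.6% of the genes above that minimum. The 15 calls in paused cells became 10 at an adjusted p under 0.01 (32.3% of all genes; 1 higher, 9 lower), 1 (E2f2) against 1.2-fold (12.1%) and 0 with the scaled statistic (2.25%; 6 at an unadjusted p under 0.05). The single difference, Orc1, became 0 at an adjusted p under 0.01 (8 at an unadjusted p under 0.05), against 1.2-fold (0 at an unadjusted p under 0.05) and with the scaled statistic (1 at an unadjusted p under 0.05). These tests use the deposited DESeq2 values. The scaled statistic called 293 and 450 of all genes in the control and paused tables, and the cause of the loss was not tested. Of these alternatives only the 2 other scalings alter the change itself, by at most 0.06. Every change called as deposited was larger than that, so no call could change direction. With the 7-base motifs TTCCCGC or TTGGCGC or TTCGCGC or TTGCCGC 25 of the 39 windows matched, against 10.9% of all genes. Chosen after seeing the data, leaving out 9 genes whose exons overlap another gene by at least 10% gave 11 and 13 calls of 39. Over all genes, 41.4% (control) and 42.6% (paused) were called as deposited. Dividing means by their sum, also chosen after seeing the data, gave 10 genes with the lower paused mean (without Tyms and Rrm1). Of the genes above the minimum on abundance, 11.4% had such a mean. No paired analysis was possible because the tables hold no value per library, and for the same reason no replicate could be left out.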

Other observations

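Of 24 mitotic genes, 6 were called lower and 1 higher in the authors' deposited control table, and 5 lower and 2 higher in the paused one. Over all genes the shares were 21.9% lower and 19.5% higher (control), and 22.0% and 20.5% (paused). With equal summed counts there was 1 lower and 2 higher (control), and 3 each way (paused), where 60.5% and 57.6% of the calls over all genes were higher. Foxm1, the factor that switches on many G2/M genes, fell by 0.28 (SE 0.07, adjusted p 0.000125) in control cells and by 0.24 (SE 0.04, adjusted p 2.39e-08) in paused cells of the authors' deposited tables. Cdc20, an activator of the anaphase-promoting complex, fell by 0.14 (SE 0.05, adjusted p 0.00919) and 0.23 (SE 0.04, adjusted p 8.98e-08), and its call in control cells was lost under both other scalings.

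Of 13 S-phase checkpoint genes, 2 were called higher and 2 lower in the authors' deposited control table, and 2 higher and 1 lower in the paused one, where 41.4% and 42.6% of all genes were called in either direction. With equal summed counts none was lower, so that the call of Tipin below was lost in both. Then 2 and 3 were higher, beside 39.8% and 41.1% of all genes called. With median centring the call of Tipin was kept in control cells and lost in paused cells. Hus1, part of the checkpoint clamp, rose by 0.29 (SE 0.06, adjusted p 1.88e-05) and 0.27 (SE 0.04, adjusted p 9.04e-11). Atr, the kinase that answers stalled forks, rose by 0.20 (SE 0.07, adjusted p 0.0163) and 0.21 (SE 0.05, adjusted p 8.54e-05). Tipin, of the fork protection complex, fell by 0.24 (SE 0.08, adjusted p 0.00835) and 0.12 (SE 0.05, adjusted p 0.049).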
